A study of Mus musculus with 8 samples.

Results

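The tendon lineage genes Scx, Mkx, Tnmd, Kera, Chad, Cilp and Cilp2, 7 in all, were followed through RNA-seq of fibro-adipogenic progenitors (FAPs), the mesenchymal progenitors of skeletal muscle, during regeneration with and without the transcription factor Osr1. The members were picked by symbol from the deposited tables, where all 7 were among 55276 symbols, each with 1 value per library. FAPs were sorted from injured tibialis anterior muscle of mice aged 4 to 6 months as GFP+ cells, the GFP being expressed from the recombined Osr1 flox allele, at 3 and 7 days post injury (dpi). Control mice (Ctrl, Osr1 flox/+ CAGG Cre+) had 1 recombined and 1 intact copy of Osr1 and Osr1cKO mice (cKO, Osr1 flox/flox CAGG Cre+) had both copies recombined, so that the GFP reporter was present in 1 copy in Ctrl and in 2 in cKO. Each of the 4 groups held 2 libraries. Every mouse, controls included, carried the tamoxifen-inducible Cre, whose promoter is active throughout the body and not only in FAPs, and was given tamoxifen on the day of the freeze-pierce injury and on the following 2 days. By the study's methods the cells for sorting were stained for CD31, CD45 and TER119, which mark endothelial and blood cells and defined a lineage-positive gate set apart from the FAPs, and for α7-integrin, which marks myogenic cells, and Ly6A/E (Sca-1). At 3 dpi each library was a single mouse, whereas 4 mice were pooled for each library of 7 dpi, so a comparison of the days cannot be told apart from the pooling.

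Tendon fibroblasts, or tenocytes, arise from progenitors that express scleraxis (Scx), a basic helix-loop-helix transcription factor that marks tendon and ligament from the embryo onwards. Scx and the atypical homeobox factor mohawk (Mkx) are known to drive tendon matrix genes, and tenomodulin (Tnmd), a transmembrane glycoprotein, marks the maturing tenocyte. Keratocan (Kera) and chondroadherin (Chad) are leucine-rich proteins that bind collagen, and the cartilage intermediate layer proteins Cilp and Cilp2 are secreted into the matrix of cartilage and other connective tissues.

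The bases before the start of Tnmd and Cilp are shown, because Tnmd had the largest genotype difference of the members at 7 dpi and Cilp was the abundant member whose genotypes stood in opposite order at the 2 days. The windows hold the 250 bases upstream of the RefSeq start, 5′ to 3′ on the gene's strand, on GRCm38.p6, the assembly also called mm10. They lie at chrX:133850758-133851007 (+ strand) for Tnmd and chr9:65264930-65265179 (+ strand) for Cilp. RefSeq and GENCODE, which gives the gene positions below, place some starts differently. The last 28 bases of the Tnmd window lie within the first exon of Tnmd in GENCODE, and the Cilp window ends at the base before the GENCODE start. The Kera and Cilp2 windows lie wholly inside the first exon of these genes in GENCODE, so they are no upstream sequence there and were neither shown nor searched. Capitals mark every match on either strand to an E-box (CANNTG, the class of site that Scx and other basic helix-loop-helix factors bind).
Tnmd: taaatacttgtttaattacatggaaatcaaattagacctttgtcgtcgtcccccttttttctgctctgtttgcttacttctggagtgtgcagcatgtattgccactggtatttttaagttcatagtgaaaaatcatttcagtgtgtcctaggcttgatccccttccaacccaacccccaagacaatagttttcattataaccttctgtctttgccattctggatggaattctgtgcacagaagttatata
Cilp: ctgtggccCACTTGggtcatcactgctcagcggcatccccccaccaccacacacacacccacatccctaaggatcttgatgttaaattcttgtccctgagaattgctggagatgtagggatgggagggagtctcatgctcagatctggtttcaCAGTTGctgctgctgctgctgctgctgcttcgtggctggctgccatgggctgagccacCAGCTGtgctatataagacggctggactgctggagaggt
The Tnmd window held no E-box and the Cilp window held 3, while 66.2% of 32851 windows of the same length held at least 1. An EGR site (GCGNGGGCG, for the immediate early factors Egr1 and Egr2), a SMAD palindrome (GTCTAGAC) and a paired Mkx site (ACANNTGT, each match of which overlaps an E-box) were in 4.70%, 0.167% and 6.31% of windows and in neither of those shown. Chad, whose window is not shown, had 1 E-box and no other match. RefSeq windows of 5 of the 7 members were matched, and Scx and Mkx were not matched. A match is a stretch of letters and not a bound site.

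The libraries held between 36516534 and 51096374 fragments on genes, recovered from the TPM values with exon lengths, and those of 3 dpi were deeper than those of 7 dpi. Osr1 was at 105 and 91.0 TPM in Ctrl and at 70.7 and 71.9 TPM in cKO at 3 dpi. At 7 dpi it was at 67.6 and 71.6 TPM in Ctrl and at 64.4 and 60.8 TPM in cKO. The cKO libraries were lower at both days, but a value for the whole gene also counts the part outside the deletion and is a weak check of the genotype. The study reported efficient loss of the floxed exon from the RNA-seq reads, which were not analysed here. The FAP marker Pdgfra was between 197 and 365 TPM in every library. The Schwann cell list summed to at most 4.08 TPM and the endothelial list to at most 19.0 TPM. The myofiber, macrophage and smooth muscle and pericyte lists summed to at most 71.6, 57.7 and 748 TPM, the last mostly Acta2. Of the muscle stem cell list, Pax7, Myf5 and Myod1 stood between 0 and 0.11 TPM at 3 dpi and reached 4.68 TPM at 7 dpi. Chodl reached 1.38 TPM. Itga7 of that list was at 4.42 to 7.34 TPM at 3 dpi and at 10.4 to 13.4 TPM at 7 dpi. In these bulk samples, fewer cells of a type and less RNA per cell cannot be told apart.

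Cilp stood far above the other members in every group, with group means between 823 and 2255 TPM and ranks between 43 and 189 among the tested genes. At 3 dpi each of the other 6 averaged under 5 TPM. At 7 dpi Tnmd and Kera stood next to Cilp, at 103 ± 53.6 and 31.2 ± 7.27 TPM in Ctrl and 307 ± 61.2 and 55.0 ± 22.4 TPM in cKO (SD, n = 2 each). Scx and Mkx followed, and Chad and Cilp2 were lowest in both groups of 7 dpi. The order of neighbours was not resolved everywhere, since the libraries of Tnmd, Mkx and Scx overlapped in both groups of 3 dpi, those of Scx, Chad and Cilp2 in the controls of 3 dpi, those of Scx and Mkx in the controls of 7 dpi and those of Chad and Cilp2 in both groups of 7 dpi.

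**Figure D1:**
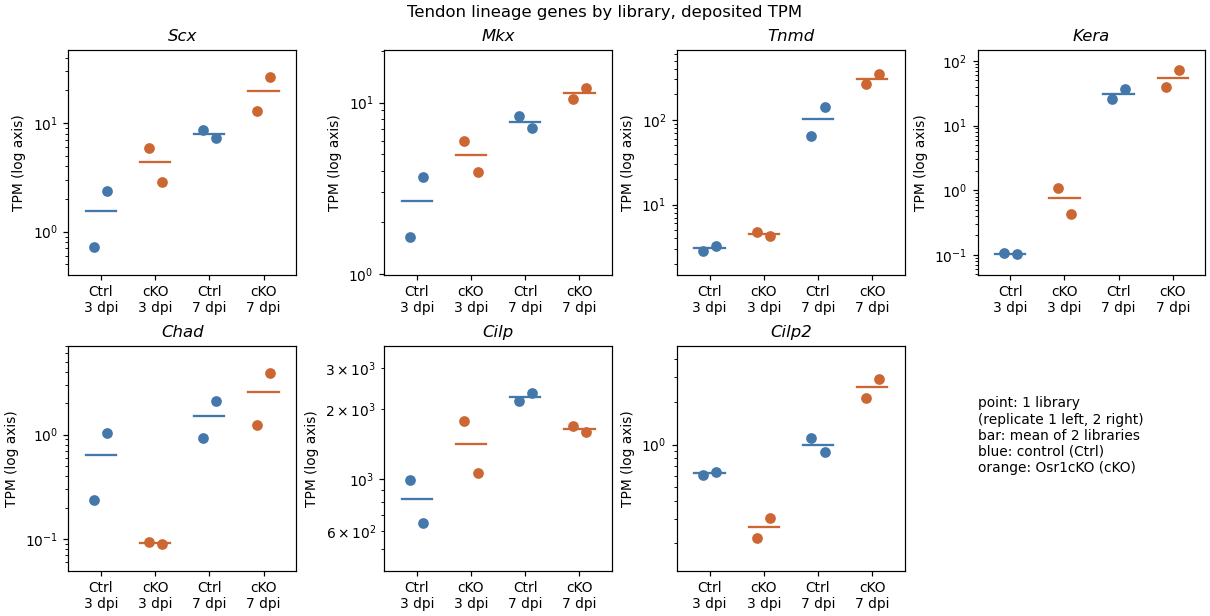
Deposited TPM of each gene (log axis, a separate range in each panel) in Ctrl and cKO at 3 and 7 dpi. A point is 1 library and a bar the mean of 2. The cKO points of Scx, Mkx, Tnmd and Kera lie above the Ctrl points at both days, those of Cilp lie above at 3 dpi and below at 7 dpi, and those of Cilp2 lie below at 3 dpi and above at 7 dpi.

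The question put to each day was whether loss of Osr1 changed the members' RNA. Scx, Mkx, Tnmd and Kera were higher in both cKO libraries than in both Ctrl libraries at 3 dpi and again at 7 dpi. Cilp was higher in cKO at 3 dpi and lower at 7 dpi, and Cilp2 was the reverse. Chad was lower in cKO at 3 dpi on a handful of fragments and overlapped at 7 dpi. The differences were tested with limma on log2(scaled TPM + 1) across all genes past a filter on low values. A gene was called at 3 dpi where its fold change was over 1.2 at an unadjusted p under 0.05. At 7 dpi it was called where the fold change was over 1.2 at a Benjamini-Hochberg adjusted p under 0.1. These cut-offs come from the study's methods, where they were applied to DESeq2 and not to limma. With its own test the study reported many more changed genes at the later day than limma called here, and reported Scx as upregulated there. The study also reported higher tendon and osteo-chondrogenic transcripts in cKO at both days. Its deconvolution, not repeated here, pointed to a shift of cKO FAPs towards a tenocyte cluster. The calls below are therefore those of limma and do not stand for the study's own test. At 3 dpi 6 members could be tested and 2 were called, Kera higher and Cilp2 lower, where 6.27% of all 15699 genes tested were called. Kera passed the filter only through its cKO libraries and so had to differ, which leaves the call of Cilp2 to be read against that share. No gene of the table passed an adjusted p under 0.1 at 3 dpi, and the members' adjusted p in limma lay between 0.773 and 0.829. At 7 dpi all 7 were tested and 0 were called, against 0.0664% of all 16578 genes. At the unadjusted rule 5 were past it at 7 dpi (Scx, Mkx, Tnmd and Cilp2 higher, Cilp lower), against 11.1% of all genes, with adjusted p between 0.264 and 0.367 in limma.

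The libraries of the genotypes stood apart in most members. Both cKO libraries were above both Ctrl libraries for 5 of the members at 3 dpi and for 5 at 7 dpi, against 20.1% and 25.5% of all genes tested at those days. They were below for 2 at 3 dpi (Cilp2 and the untested Chad) and for 1 at 7 dpi (Cilp), against 16.5% and 20.5%. Of the members, 4 (Scx, Mkx, Tnmd and Kera) were above at both days, against 6.88% of the 15043 genes tested at both. Kera passed the filter at 3 dpi only through its cKO libraries. Its place above Ctrl at that day was thus fixed by the filter and adds nothing to the counts of 3 dpi and of both days. The median log2 fold change of the 7 members was 0.63 at 7 dpi, with a median over all genes of 0.005. The members were chosen with results of these libraries known, and these counts describe the libraries without testing them.

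Scx (chr15:76457452-76459458, + strand), which marks the tendon progenitor, was among the low genes at 3 dpi. Its TPM was 0.720 and 2.35 in Ctrl and 5.83 and 2.89 in cKO at 3 dpi, from 18, 60, 148 and 76 fragments. The cKO libraries were both higher, but the 2 controls differed more from each other than the lower cKO library did from the higher control. The means differed 2.84-fold, and the log2 fold change was 1.10 ± 0.44 (SE, limma adjusted p = 0.784), which was not called. It lay between 0.61 and 1.59 as 1 library was left out, and was called without the second Ctrl library (1.59) or the second cKO library (1.52). At 7 dpi Scx was at 8.55 and 7.27 TPM in Ctrl and at 12.9 and 26.3 TPM in cKO. The controls lay close together and the cKO libraries, both above them, lay apart. The means differed 2.48-fold, with a log2 fold change of 1.01 ± 0.30 (SE, limma adjusted p = 0.325), and it was 0.55 without the second cKO library and 1.47 without the first. GENCODE places Scx inside Bop1 on the opposite strand with no shared exon base, and the exon length of Scx, 2007 bp, includes the intron of its main transcript.

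Mkx (chr18:6934518-7004780, - strand), a homeobox factor needed for thick collagen fibrils in tendon, was low at 3 dpi as Scx was. It was at 1.65 and 3.69 TPM in Ctrl and at 5.98 and 3.95 TPM in cKO at 3 dpi. The lower cKO library exceeded the higher control by 1.07-fold only. The log2 fold change was 0.74 ± 0.36 (SE, limma adjusted p = 0.829), lay between 0.32 without the first Ctrl library and 1.15 without the second, and was called in the latter case. At 7 dpi Mkx was at 8.31 and 7.15 TPM in Ctrl and at 10.5 and 12.2 TPM in cKO. The groups did not overlap and the difference was small, 1.47-fold between the means. The log2 fold change was 0.38 ± 0.14 (SE, limma adjusted p = 0.367). Of the exon bases of Mkx, 4.90% are shared with another annotated transcript on the same strand, AC148004.2.

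Tnmd (chrX:133850980-133865577, + strand), the marker of tenocyte maturation, had the largest genotype difference of the members at 7 dpi on the log2 scale. At 3 dpi it was at 2.85 and 3.25 TPM in Ctrl and at 4.73 and 4.29 TPM in cKO, from 48, 56, 81 and 76 fragments. The groups were separate, with 1.48-fold between the means and a log2 fold change of 0.44 ± 0.20 (SE, limma adjusted p = 0.819). At 7 dpi it was at 64.9 and 141 TPM in Ctrl and at 264 and 350 TPM in cKO. The lowest cKO library exceeded the highest control 1.87-fold, although the 2 controls were far apart. The means differed 2.98-fold and the log2 fold change was 1.53 ± 0.35 (SE, limma adjusted p = 0.271), so that Tnmd was not called. It was called with the first Ctrl library left out (log2 fold change 0.98, adjusted p = 0.0428) and with the second left out (2.07, adjusted p = 0.00656), where the remaining control has no spread of its own and was taken to vary like the cKO pair. It was also called by limma-voom on recovered fragments (adjusted p = 0.0750).

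Kera (chr10:97606879-97613692, + strand), a keratan sulfate proteoglycan of cornea and tendon that spaces collagen fibrils, was close to absent from controls at 3 dpi. Its TPM was 0.106 and 0.103 in Ctrl and 1.07 and 0.435 in cKO, from 3, 3, 31 and 13 fragments. All 4 libraries were low, and the cKO libraries were both above the controls. On pooled fragments the ratio was 7.17, with an exact 95% interval from 3.04 to 20.6 that covers counting error only. The log2 fold change was 0.65 ± 0.21 (SE, limma adjusted p = 0.773) and passed the rule of that day. Kera entered the test only through the cKO libraries, since neither control reached 10 fragments, so that it had to differ, and its call was lost without either control library (unadjusted p of 0.0748 and 0.0716 in limma). At 7 dpi Kera was at 26.0 and 36.3 TPM in Ctrl and at 39.2 and 70.8 TPM in cKO, from 640 to 1551 fragments. The lower cKO library exceeded the higher control by 1.08-fold, and the log2 fold change was 0.63 ± 0.28 (SE, limma adjusted p = 0.433), between 0.24 without the second cKO library and 1.02 without the first.

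Chad (chr11:94565047-94569127, + strand), a collagen and integrin binding protein best known from cartilage, rested on the fewest fragments of the members at 3 dpi and at 7 dpi, 31 and 139 over 4 libraries. It was at 0.239 and 1.03 TPM in Ctrl and at 0.0941 and 0.0909 TPM in cKO at 3 dpi, from 5, 22, 2 and 2 fragments. The controls were both above the cKO libraries but far apart, and the gene did not reach the filter for a test. On pooled fragments the ratio of Ctrl over cKO was 6.90, with an exact 95% interval from 2.41 to 27.2 for counting error. At 7 dpi Chad was at 0.939 and 2.10 TPM in Ctrl and at 1.24 and 3.90 TPM in cKO. The groups overlapped, with a log2 fold change of 0.35 ± 0.41 (SE, limma adjusted p = 0.768) that was −0.19 without the second cKO library. Chad lies inside Acsf2 on the opposite strand with no shared exon base.

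Cilp (chr9:65265180-65280605, + strand), a large secreted matrix protein that binds TGFβ1, was the one abundant member at both days. At 3 dpi it was at 996 and 649 TPM in Ctrl and at 1775 and 1071 TPM in cKO. The cKO libraries were both higher, the lower one by 1.07-fold over the higher control, and the log2 fold change was 0.78 ± 0.35 (SE, limma adjusted p = 0.824). It lay between 0.39 without the first cKO library and 1.16 without the second, and it was 0.47 without the second Ctrl library. It was called without the first Ctrl library (1.07) and without the second cKO library. At 7 dpi it was at 2163 and 2346 TPM in Ctrl and at 1692 and 1602 TPM in cKO. Here the cKO libraries were both lower and each pair was tight. The means differed 1.37-fold and the log2 fold change was −0.58 ± 0.13 (SE, limma adjusted p = 0.264), and leaving out any 1 library kept it between −0.66 and −0.51. limma-voom on recovered fragments called it (adjusted p = 0.0609).

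Cilp2 (chr8:69880369-69887687, - strand), the relative of Cilp, averaged at most 2.53 TPM in any group and went the opposite way at each day. At 3 dpi it was at 0.614 and 0.638 TPM in Ctrl and at 0.220 and 0.301 TPM in cKO, from 33, 35, 12 and 17 fragments. Both cKO libraries were below the controls, the means differed 2.40-fold, and the log2 fold change was −0.37 ± 0.13 (SE, unadjusted p = 0.0367, limma adjusted p = 0.781), which passed the rule of that day. With any 1 library left out the unadjusted p lay between 0.0565 and 0.205 in limma and the call was lost. At 7 dpi it was at 1.12 and 0.882 TPM in Ctrl and at 2.15 and 2.92 TPM in cKO, from 52, 42, 89 and 121 fragments. Both cKO libraries were above the controls, the means differed 2.53-fold, and the log2 fold change was 0.73 ± 0.17 (SE, limma adjusted p = 0.271). With a pseudocount of 0.1 in place of 1 the log2 fold changes of Cilp2 were −1.02 and 1.13, since the constant added before taking logs compresses genes this low.

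**Figure D2:**
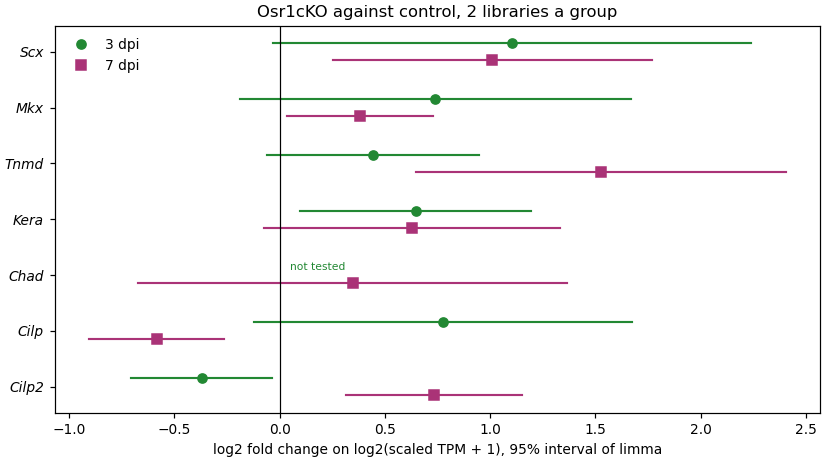
Log2 fold change of cKO against Ctrl at 3 dpi (circles) and 7 dpi (squares) on log2(scaled TPM + 1), with the 95% interval of limma for 1 gene at a time. The values of Scx, Mkx, Tnmd and Kera are above 0 at both days, those of Cilp (0.78 and −0.58) and Cilp2 (−0.37 and 0.73) change side, and Chad was not tested at 3 dpi.

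**Figure D3:**
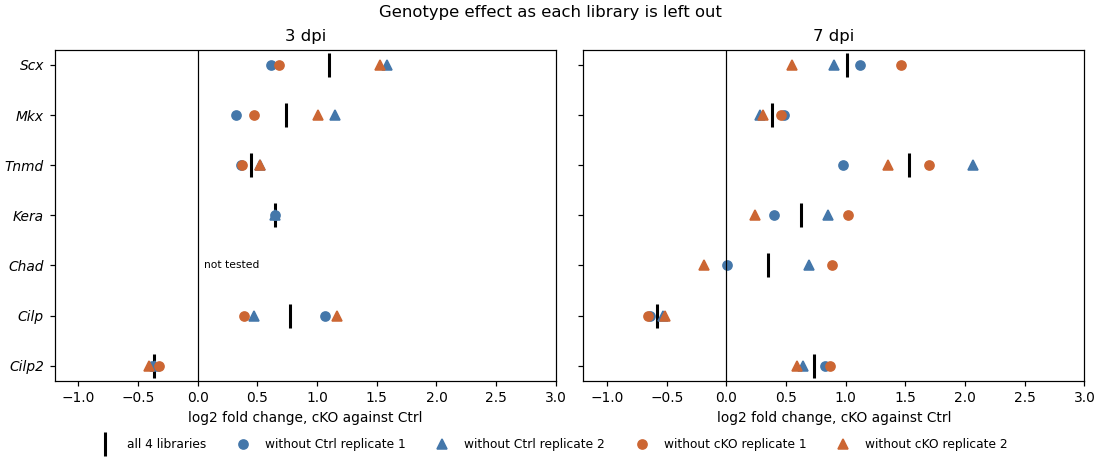
The same log2 fold changes with each library left out in turn (colour for the genotype of the library left out, shape for its number) and with all 4 libraries (black bars). Cilp at 7 dpi stays between −0.66 and −0.51, Tnmd at 7 dpi spans 0.98 to 2.07, Chad at 7 dpi crosses 0, and Kera at 3 dpi could not be tested without either cKO library.

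The next question was how the members changed from 3 to 7 dpi in each genotype, in a fit of all 8 libraries with 1 mean per group. In controls 5 members rose (Scx, Mkx, Tnmd, Kera and Cilp) and 0 fell, where 26.5% of all 17371 genes rose and 27.9% fell. In cKO 6 rose (Scx, Mkx, Tnmd, Kera, Chad and Cilp2) and 0 fell, where 23.9% of all genes rose and 26.2% fell. Chad did not reach the filter at 3 dpi and entered this fit only with its libraries of 7 dpi. Its rise in cKO was thus favoured by the filter and adds nothing to that count. The control and cKO comparisons have no library in common, but each shares its libraries with the genotype comparisons above. The median log2 fold change of the 7 was 1.56 in Ctrl and 1.56 in cKO, and the medians over all genes were 0.018 and 0.024. In cKO that median is the value of Chad.

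Markers of other cells rose over the same days, beside the 26.5% of all genes that rose in Ctrl and the 23.9% in cKO. The shares that fell were 27.9% and 26.2%. In Ctrl 6 of 6 myofiber genes and 5 of 5 muscle stem cell genes rose, and in cKO 5 of 6 and 2 of 5. Of the macrophage genes 2 of 5 rose in Ctrl and 5 of 5 in cKO. Of the endothelial genes 2 of 4 rose and 1 fell in Ctrl, and 3 of 4 rose in cKO. Emcn, which rose in cKO, did not reach the filter at 3 dpi either. Of the smooth muscle and pericyte genes 3 of 5 rose in each genotype and 1 fell in cKO, and Rgs5, a marker of pericytes, rose by 3.99 ± 0.66 and 4.57 ± 0.66 on the log2 scale (SE, limma adjusted p = 0.00308 and 0.00238). Of the 6 FAP markers 4 rose and 2 (Pdgfra and Ly6a) fell in each genotype, and 0 of 3 tested Schwann cell genes passed the test. The part of these cells in the members' rise was not tested.

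Tnmd and Kera rose most. The mean TPM of Tnmd rose 33.7-fold in Ctrl and 68.0-fold in cKO, with log2 fold changes of 4.65 ± 0.32 and 5.73 ± 0.32 (SE, limma adjusted p = 0.00021 and 0.000337). The smallest ratio of a library of 7 dpi over a library of 3 dpi of the same genotype was 20.0. Among the genes tested, Tnmd moved from the percentile 35.7 of abundance to 92.7 in Ctrl and from 40.8 to 97.3 in cKO. Kera rose by 4.91 ± 0.31 on the log2 scale in Ctrl and by 4.90 ± 0.31 in cKO (SE, limma adjusted p = 0.00019 and 0.000428). On pooled fragments Kera was 299 times higher in Ctrl at 7 dpi than at 3 dpi, from 1554 and 6 fragments, with an exact 95% interval from 137 to 816 for counting error. The transcription factors rose less. Scx rose 5.15-fold in Ctrl and 4.49-fold in cKO (log2 1.95 ± 0.45 and 1.86 ± 0.45, SE, limma adjusted p = 0.0111 and 0.0154). Mkx rose 2.90-fold and 2.29-fold (log2 1.37 ± 0.31 and 1.01 ± 0.31, SE, limma adjusted p = 0.0107 and 0.0368), and its call in cKO was lost without the second library of 3 dpi or either library of 7 dpi. Among the alternatives that kept every library, the limma adjusted p of Mkx in cKO reached 0.103, above the threshold of 0.1.

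Cilp, Cilp2 and Chad passed the test in 1 genotype each, and the test of the difference between genotypes follows. Cilp rose 2.74-fold in Ctrl (log2 1.56 ± 0.29, SE, limma adjusted p = 0.00461), whereas in cKO its libraries of the 2 days overlapped (log2 0.19 ± 0.29, adjusted p = 0.62). Cilp2 rose 9.72-fold in cKO (log2 1.44 ± 0.15, SE, limma adjusted p = 0.000889), and in Ctrl its means differed 1.60-fold without passing the test (log2 0.33 ± 0.15, adjusted p = 0.103). That value was past the threshold with median-of-ratios scaling (limma adjusted p = 0.0961) and without the first or the second cKO library of 7 dpi (0.0909 and 0.0886). Chad rose in cKO (log2 1.56 ± 0.40, SE, limma adjusted p = 0.02) from 4 pooled fragments to 83, a ratio of 27.8 with an exact 95% interval from 10.5 to 104 for counting error, and this call was lost without the second cKO library of 7 dpi (adjusted p = 0.101). Chad had entered this fit only with its libraries of 7 dpi, so that a rise was favoured by the filter. In Ctrl the log2 fold change of Chad was 0.66 ± 0.40 (SE, limma adjusted p = 0.214), with overlapping libraries, and it was called only with the replicate block (adjusted p = 0.0823) among the alternatives.

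**Figure D4:**
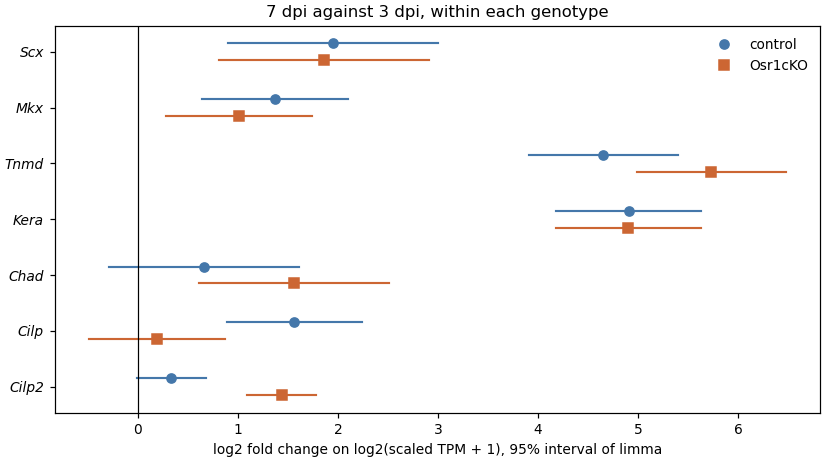
Log2 fold change of 7 dpi against 3 dpi in Ctrl (circles) and cKO (squares) on log2(scaled TPM + 1), with the 95% interval of limma for 1 gene at a time. Tnmd and Kera lie between 4.65 and 5.73, Scx and Mkx between 1.01 and 1.95, Cilp is at 1.56 in Ctrl and 0.19 in cKO, and Cilp2 at 0.33 in Ctrl and 1.44 in cKO.

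Whether the genotype effect itself differed between the days was tested as an interaction over the 8 libraries. At an adjusted p under 0.1, limma and limma-voom called 0 of the 7 members, and limma called 0.0% of all genes. At an unadjusted p under 0.05 limma had 3 members, against 6.78% of all genes. For Tnmd the difference of the log2 fold changes was 1.08 ± 0.45 (SE), with a limma unadjusted p of 0.046 and an adjusted p of 0.728. For Cilp it was −1.37 ± 0.41 (SE), with a limma unadjusted p of 0.0114 and an adjusted p of 0.625. For Cilp2 it was 1.10 ± 0.21 (SE), with a limma unadjusted p of 0.00104 and an adjusted p of 0.439. Cilp and Cilp2 were the 2 members whose cKO libraries lay on opposite sides of Ctrl at the 2 days with no overlap, against 5.92% of genes tested at both days. For Chad, tested here over the 8 libraries, it was 0.90 ± 0.57 (SE), with a limma unadjusted p of 0.158 and an adjusted p of 0.865. For Scx, Mkx and Kera the differences were −0.09 ± 0.63, −0.36 ± 0.44 and 0.00 ± 0.43 (SE), with intervals too wide to show that the days were alike.

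Other genes of tendon were read from lists that hold none of the members. Among 26 tendon matrix genes, 21 had a positive log2 fold change at 3 dpi (median 0.295, all genes 0.007) and 5 were called, 4 of them higher in cKO, where 6.27% of all genes tested were called. The higher ones were Thbs4, a thrombospondin of tendon (log2 1.39 ± 0.25, SE), the fibril-associated collagen Col12a1 (0.66 ± 0.17), the small proteoglycan Aspn (1.04 ± 0.30) and the fibril collagen Col11a1 (0.61 ± 0.18). Comp, a pentameric protein of tendon and cartilage, was called lower (−0.54 ± 0.15), and the adjusted p of all 5 was 0.772 in limma. At 7 dpi 0 of the 26 were called and the median was −0.001 (all genes 0.005), with 13 positive. With the rule of 3 dpi applied to 7 dpi, limma had 6 of them higher in cKO (Col11a1, Fmod, Col24a1, Col12a1, Prg4 and C1qtnf3) and 2 lower (Itgbl1 and Col14a1), 8 of 26 where 11.1% of all genes passed. Fmod, or fibromodulin, a small proteoglycan that binds collagen fibrils, was at 156 and 178 TPM in Ctrl and at 263 and 289 TPM in cKO at that day (log2 0.59 ± 0.09, SE, adjusted p = 0.216). From 3 to 7 dpi 14 of the 26 rose and 2 fell in Ctrl, and 14 rose and 3 fell in cKO, beside the 26.5% and 23.9% of all genes that rose.

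Of 21 regulators and inducers of the lineage, 16 could be tested at 3 dpi and 2 were called, both higher in cKO, beside 6.27% of all genes. These were the TGFβ ligands Tgfb2 (log2 0.53 ± 0.17, SE) and Tgfb3 (0.86 ± 0.32), with adjusted p of 0.773 and 0.784 in limma. At 7 dpi 18 were tested and 0 called, and by the rule of 3 dpi limma had 4 of the 18, among them Tgfb3 and Egr2 lower and Six2 higher, beside 11.1% of all genes. Tgfb3 thus stood higher in cKO at 3 dpi (68.0 and 72.9 TPM in Ctrl, 176 and 94.2 in cKO) and lower at 7 dpi (274 and 263 TPM in Ctrl, 221 and 252 in cKO), the order of sides seen in Cilp. From 3 to 7 dpi 4 of 18 rose and 1 fell in Ctrl, and 6 rose and 1 fell in cKO, again beside 26.5% and 23.9% of all genes that rose. Eya1 and Mstn, which rose in cKO, did not reach the filter at 3 dpi and entered only with libraries of 7 dpi. Among the 11 nearest relatives of the members in the tables (Lum is also a tendon matrix gene), 0 of 9 tested at 3 dpi and 0 of 10 tested at 7 dpi were called, and 0 and 1 passed the unadjusted rule, beside 6.27% and 11.1% of all genes. Epyc, a small leucine-rich proteoglycan like Kera, was at 0.87 and 1.24 TPM in Ctrl and at 3.57 and 5.49 TPM in cKO at 7 dpi (log2 1.33 ± 0.21, SE, adjusted p = 0.222). From 3 to 7 dpi 5 of 10 relatives rose and 1 fell in each genotype, beside the same shares. Cnmd, which rose in both, did not reach the filter at 3 dpi and entered only with libraries of 7 dpi.

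**Figure D5:**
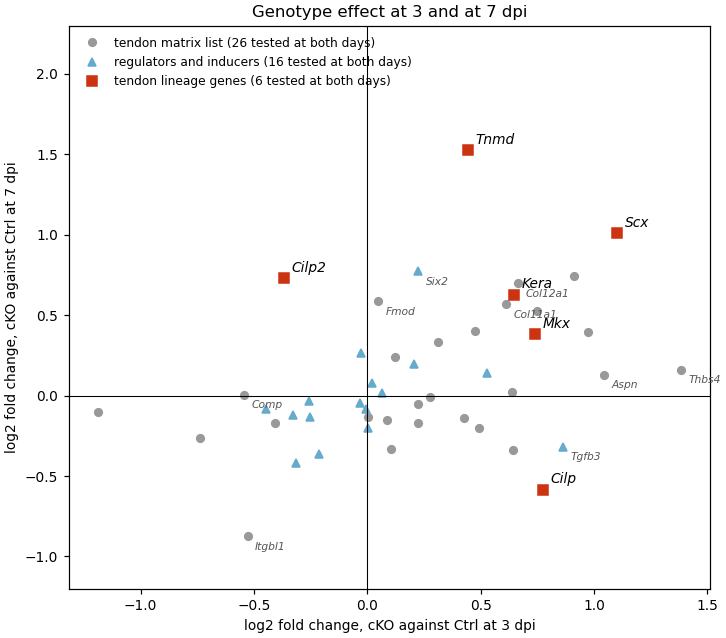
Log2 fold change of cKO against Ctrl at 3 dpi (x axis) and 7 dpi (y axis) for genes tested at both days, with the tendon lineage genes as squares, 26 tendon matrix genes as circles and 16 regulators and inducers as triangles. Scx, Mkx, Tnmd and Kera lie at the upper right, Cilp lies at 0.78 and −0.58, and Cilp2 lies at −0.37 and 0.73.

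Markers of other cells moved with some of these groups. At 3 dpi the 6 FAP markers summed to 6138 to 7357 TPM in Ctrl and 3794 to 4458 TPM in cKO, and Ly6a, the abundant one, was called lower (log2 −0.95 ± 0.34, SE, limma adjusted p = 0.781). Ly6a encodes Sca-1, 1 of the proteins stained for the sort. Of the other FAP markers Dcn (−0.41), Dpp4 (−0.39) and Pdgfra (−0.27) had negative and Pi16 (0.35) and Cd34 (0.08) positive log2 fold changes, and 0 of these 5 were called. At 7 dpi the sums overlapped, at 4664 to 5492 TPM in Ctrl and 4303 to 5691 TPM in cKO. The smooth muscle and pericyte list, mostly Acta2, summed to 208 to 455 TPM in Ctrl and 601 to 722 TPM in cKO at 7 dpi, and to 220 to 364 and 297 to 748 TPM at 3 dpi. The separation at 7 dpi was that of Acta2 (log2 1.10 ± 0.36, SE, limma adjusted p = 0.342), an actin that activated fibroblasts also make, while Rgs5 (0.27), Myh11 (0.15), Kcnj8 (−0.21) and Cspg4 (−0.29), which are more particular to mural cells, went both ways and none was called. The endothelial list was at 7.12 to 8.24 TPM in Ctrl and 11.0 to 12.7 TPM in cKO at 7 dpi, and at 4.63 to 19.0 and 2.32 to 2.61 TPM at 3 dpi. The myofiber list was at 62.0 to 71.6 TPM in Ctrl and 42.3 to 42.8 TPM in cKO at 7 dpi, and at 10.1 to 14.2 and 8.42 to 10.3 TPM at 3 dpi. Macrophage and muscle stem cell genes summed to at most 19.3 and 7.37 TPM at 3 dpi and to at most 57.7 and 23.1 TPM at 7 dpi. None of these lists had a gene called at 7 dpi. By the unadjusted rule 1 of 5 smooth muscle and pericyte genes, 2 of 4 endothelial genes and 1 of 5 macrophage genes were higher in cKO at 7 dpi and 4 of 6 myofiber genes were lower, beside 11.1% of all genes, and their part in the members' differences was not tested.

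Cartilage and tendon sheath share genes with the lineage. The cartilage and bone list summed to between 120 and 171 TPM in all libraries, mostly Sox9 and Runx2. Acan, or aggrecan, the large proteoglycan of cartilage that tendon also holds, was at 0.11 to 1.31 TPM at 3 dpi, and at 9.60 and 6.22 TPM in Ctrl and 10.5 and 18.2 TPM in cKO at 7 dpi. It rose with the days in both genotypes (log2 2.52 and 2.78, SE 0.40 each, limma adjusted p = 0.00253 and 0.00229), and the genotypes did not pass the test at 7 dpi (0.64 ± 0.29, adjusted p = 0.441). Col9a1, a collagen of cartilage, stayed at or under 1.04 TPM and rose in both (log2 0.98 and 0.84, limma adjusted p = 0.000678 and 0.00161). At 3 dpi it was at 0 to 0.015 TPM and did not reach the filter. It entered the fit only through its libraries of 7 dpi, so that it had to rise. In contrast, Col2a1, the collagen that defines cartilage, was at most 1.54 TPM and Matn1 was at 0 in all 8 libraries. Col2a1 was called lower in cKO at 3 dpi (log2 −0.37 ± 0.14, SE, limma adjusted p = 0.784), as Cilp2 was. The tendon sheath and synovium list (Prg4, Tppp3 and Has1) summed to 1253 to 2787 TPM in Ctrl and 1653 to 3669 TPM in cKO at 3 dpi, and to 1049 to 1237 and 1067 to 1302 TPM at 7 dpi. The 8-gene tenocyte list, which holds 4 of the members beside Col1a1, Thbs4, Fmod and Comp, summed to 13048 to 23759 TPM in Ctrl and 22126 to 26887 TPM in cKO at 3 dpi, and to 27491 to 30583 and 28133 to 31363 TPM at 7 dpi, and Col1a1 made up most of it.

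The members were compared with each other and with all genes after the mean of each day was subtracted, over the 8 libraries. The 2 libraries of a group share genotype and day, and depth differed between the days, whose means were subtracted. Among the members Scx and Mkx were most alike (Pearson r = 0.93), then Scx and Kera (0.86) and Tnmd and Kera (0.80), and Cilp and Cilp2 were most unlike (−0.76). Among 14166 genes the closest to Scx were Mlst8 (0.99), Rhot1 (0.98) and Gm4430 (0.98), and the closest to Mkx were Mphosph8 (0.996), Fbxo22 (0.99) and Pdgfc (0.99). For Tnmd they were Gm6992 (0.97), Gm14279 (0.96) and Lpcat2 (0.95), and for Kera Gm42928 (0.96), H3c15 (0.95) and Wasf1 (0.94). For Chad they were Fgf16 (0.95), Pola2 (0.95) and Bicdl1 (0.93). For Cilp they were Gm17251 (0.97), Jup (0.97) and Cplx2 (0.97), and for Cilp2 Mtch2 (0.98), Polr3c (0.97) and Atp6v1h (0.96). Each of the 7 members had 3 genes at an r of at least 0.93, and no gene of the tendon lists was among them. These are the highest of 14166 values over only 8 libraries. Values of this size can arise from the search alone, and they were not tested.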

How the data were processed

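RNA of GFP+ FAPs was measured in 8 libraries. The authors used STAR to align reads from stranded libraries to mm10, normalized fragment counts with DESeq2 and deposited TPM per gene symbol. The program that counted and its annotation are not given in the sources used here. Of 55385 entries per library, 109 further entries of 106 repeated symbols were left out. Exon lengths of GENCODE M21 (GRCm38) were found for 53281 of 55276 symbols and turned TPM into fragments, and of values under 50 fragments 98.7% to 98.9% came within 0.02 of whole fragments, so a member at few fragments carries the most counting error. The labels name 1 instrument and read length for all libraries and the methods name a pair without saying which day used which, so instrument and day cannot be told apart.

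Libraries were scaled by a mean of log ratios trimmed by 30%. Genes with 10 fragments in 2 libraries and 15 in all (or a mean TPM of at least 1 where no length was found) were kept, and log2(TPM + 1) was fitted with lmFit and eBayes with a trend, on the 4 libraries of a day for the genotypes and on all 8 for the days and the interaction. Fold changes on this scale understate the change of low genes. The procedure was run on simulated data with the same biological spread for every gene. Only genes with more fragments than Kera, Chad or Cilp2 had at 3 dpi were changed there, so the run is no check for members this low. The tools were limma 3.58.1 in R 4.3.3, and pandas 2.3.3 and NumPy 2.4.6 in Python 3.11.15. Replicates are numbered libraries, and p-values measure only the spread between them. Calls across the days needed a fold over 1.2, and the interaction no fold, with adjusted p under 0.1.

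The members, the lists and the motifs were chosen with earlier results of these data known, and Scx, Mkx, Tnmd and Cilp are displayed by the study for these same samples, so their directions are not independent evidence. All members were named, with Osr1, the 3 genes most like each member among genes with a mean TPM of at least 1, and at most 4 called genes per lineage list and comparison. Col11a1, Ly6a, Acta2, Rgs5, the other genes given from those lists, Col2a1, Acan, Col9a1, Fmod, Epyc and the genes past the unadjusted p at 7 dpi were named after their values were seen. Alternatives were other scalings, filters, a pseudocount of 0.1, limma-voom on recovered fragments, robust eBayes, a replicate block, 1 fit of all 8 libraries, the other call rule and leaving out each library. Reads, exon usage and other assays of the study were not analysed here. The value of 1 gene of the lists is not reported here.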

Additional observations from a re-analysis of the deposited data

Results flagged for a closer look

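Cilp and Cilp2 were set apart because both cKO libraries lay on 1 side of both Ctrl libraries at 3 dpi and on the other side at 7 dpi, in opposite senses for the 2 genes. Of the genes tested at both days 5.92% changed side in this way. A gene picked by this rule must show a difference between the days in these libraries, so the values below describe it and are no separate support. The difference of the genotype effects, 7 dpi minus 3 dpi on the log2(scaled TPM + 1) scale, was −1.37 for Cilp and 1.10 for Cilp2. In the limma fit of all 8 libraries the unadjusted p was 0.0114 and 0.00104 and the adjusted p 0.625 and 0.439, so neither passed the correction. With each library left out the difference lay between −1.75 and −0.999 for Cilp and between 0.97 and 1.24 for Cilp2. Over the other alternatives the adjusted p lay between 0.547 and 0.758 for Cilp and between 0.423 and 0.663 for Cilp2. Cilp rests on 242979 fragments over the 4 libraries of 3 dpi and Cilp2 at 3 dpi on 12 to 35.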

How the results depend on the processing

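The sign of each member's genotype effect at 3 dpi, and of all but Chad at 7 dpi, was the same under the alternatives run. The number of members called at 3 dpi, 2 as reported, became 0 with a filter on mean TPM (which left Kera and Cilp2 untested), 4 in a fit of all 8 libraries (Scx, Mkx and Cilp higher, Cilp2 lower), 0 under an adjusted p and 0 to 2 as 1 library was left out. At 7 dpi it went from 0 to 2 with limma-voom (Tnmd and Cilp), 5 under an unadjusted p and 0 to 1 as 1 library was left out. For the days it lay between 5 and 6 in Ctrl (5 as reported, and 6 with Cilp2 or Chad as the sixth) and between 4 and 6 in cKO (6 as reported), and for the interaction it went from 0 to 3 under an unadjusted p. Values that turned sign were Chad at 7 dpi (−0.19 to 0.88 as 1 library was left out, below 0 without the second cKO library), Cilp across the days in cKO (−0.20 to 0.56, below 0 without the second library of 3 dpi), and the interactions of Scx (0.029 without scaling, −0.59 to 0.41 as 1 library was left out), Kera (0.11 without scaling, 0.0014 with the filter on mean TPM, −0.38 to 0.39 as 1 library was left out) and Mkx (−0.80 to 0.077), none of which was called. The cause was not tested. The share of all genes called moved with the settings as well. At 3 dpi it was 6.27% as reported, 5.93% with the filter on mean TPM and 10.4% in the fit of all 8 libraries. At 7 dpi it was 0.0664% as reported, 1.15% with limma-voom and 11.1% under an unadjusted p. Across the days it was 54.4% in Ctrl and 50% in cKO as reported, and 24.8% and 22% without a filter. For the interaction it was 6.78% under an unadjusted p.

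A replicate block gave 2 members at 3 dpi (Kera and Cilp higher, with limma unadjusted p of 0.0765 for Cilp2 and 0.0228 for Cilp), 0 at 7 dpi, and 6 in Ctrl and 6 in cKO across the days. With the block 5.8% of all genes were called at 3 dpi and 0.163% at 7 dpi. Across the days 52.6% were called in Ctrl and 47.6% in cKO. The numbers did not pair the samples, as the correlation of same-numbered deviations was −0.117 between genotypes at 3 dpi and 0.066 at 7 dpi.

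Over all genes, 985 calls at 3 dpi became 1802 in the fit of all 8 libraries, 0 under an adjusted p, 2800 without the second Ctrl library, 659 without the first cKO library and 410 without the second. The 11 calls at 7 dpi became 0 without scaling (median log2 fold change 0.109 against 0.005), with the filter on mean TPM, without a filter and in the fit of all 8 libraries, 188 with limma-voom, 27 with the block, 1843 under an unadjusted p and 5 to 314 as 1 library was left out. The 0 interactions became 1 with the filter on mean TPM, 40 without a filter, 3 with a pseudocount of 0.1, 1177 under an unadjusted p and 0 to 105 as 1 library was left out. At 3 dpi Kera, Chad and Cilp2 rested on 50, 31 and 97 fragments over the 4 libraries.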
